A study of Mus musculus with 847 samples.

Results

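Neurotrophins are secreted growth factors that neurons need for survival, branching and synaptic plasticity. Here 8 genes were followed through the mouse brain. They encode neurotrophins, neurotrophin receptors, and receptors of a separate family of growth factors, the GDNF family. These genes were chosen by name and not by their values, though earlier results of these data were known. They are 8 of the 21076 genes in the count table. Bdnf (brain-derived neurotrophic factor) and Ntf3 (neurotrophin 3) encode ligands. Ntrk2 encodes TrkB, the receptor tyrosine kinase that binds brain-derived neurotrophic factor, Ntrk3 encodes TrkC, the kinase that prefers neurotrophin 3, and Ngfr encodes p75, a receptor that binds every neurotrophin and their uncleaved precursors. Gfra1 and Gfra2 encode co-receptors of the GDNF family of ligands, which are held at the membrane by a lipid anchor, and Ret encodes the kinase that both of them share. In the adult brain Bdnf is made mainly by excitatory neurons and its transcription follows neuronal activity. TrkB occurs in neurons as a full-length kinase and in astrocytes largely as a truncated form without the kinase.

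RNA was sequenced from 15 dissected brain regions of 59 mice of strain C57BL/6JN, and the labels list no treatment. Females and males, 5 of each, were sampled at 3, 12, 15 and 18 months, 5 females and 6 males at 21 months, 5 males at 26 months and 3 males at 28 months. Each library is 1 region of 1 mouse, and each region has between 51 and 59 libraries. The oldest 2 ages are therefore male only, and the mice of 12 and 26 months carry the numbers 1 to 15, apart from all others. The mice of 28 months carry the numbers 57 to 59, also apart. At 3, 15, 18 and 21 months males carry 16 to 36 and females 37 to 56. Age is thus tied to mouse number at 12, 26 and 28 months, and sex at the other ages. The tissue was homogenised whole, so fewer cells of a type and less RNA per cell cannot be told apart in any value below.

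The smallest library total was 481444 reads, the median 6716032 and the largest 26756735; only 10 totals were below 1e+06. Levels are given as reads per 1e+06 library reads after TMM scaling, written CPM. Defining markers matched most labels: the lowest library had 77.9 CPM of Drd1 in caudate putamen, 236 CPM of Gabra6 in cerebellum, 551 CPM of Tcf7l2 in thalamus and 362 CPM of Doc2g in olfactory bulb. The choroid plexus gene Ttr had a median of 5307 CPM in choroid plexus, but libraries overlapped: the lowest there had 507 CPM, and single libraries reached 17579 CPM in corpus callosum, 7507 CPM in subventricular zone and 4174 CPM in anterior hippocampus. The choroid plexus libraries also held neurons, with a median of 2665 CPM of Snap25. The entorhinal library of mouse 52, a 21-month female, went against its label, with 0.292 CPM of the cortical gene Tbr1 against 11.5 to 81.8 CPM in the other 50 entorhinal libraries, and the entorhinal values of Ntf3 and Ret and the region slopes that touch it are given with and without it. Corpus callosum libraries held striatal tissue, with a median of 312 CPM of Adora2a against 524 CPM in caudate putamen. Hcrt, a gene of orexin neurons, ran from 0.426 to 1837 CPM in hypothalamus libraries. Pons libraries differed widely in the dopamine transporter gene Slc6a3, a mark of midbrain dopamine neurons, as described with Ret.

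Bdnf (chr2:109674700-109727007, GRCm38, plus strand) was highest in anterior hippocampus and visual cortex and lowest in caudate putamen. Its level was 95.9 ± 17.4 CPM (SD, n = 57) in anterior hippocampus and 96.4 ± 19.6 CPM (n = 56) in visual cortex, and these 2 regions did not differ beyond their spread. Motor cortex, at 66.1 ± 10.4 CPM, and posterior hippocampus, at 64.7 ± 17.4 CPM, came next. A broad middle group of pons, thalamus, entorhinal cortex, cerebellum, choroid plexus and hypothalamus lay between 30.4 and 39.0 CPM, and no neighbours within that group differed. Medulla (21.2 CPM), olfactory bulb (17.6 CPM), corpus callosum (10.6 CPM) and subventricular zone (8.44 CPM) followed. Caudate putamen had 2.63 ± 4.84 CPM (n = 58), 36.6-fold below visual cortex; 3 of its libraries had no Bdnf read, its median was 0.889 CPM and its highest library had 24.5 CPM. Caudate putamen is known to receive much of its brain-derived neurotrophic factor protein along axons from the cortex. Of the 14 pairs of neighbours in the order of mean log2 CPM, 6 differed (2-sided permutation test of 100000 resamples, Benjamini-Hochberg adjustment over 112 pairs of the 8 genes).

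Bdnf has several alternative first exons, each with its own promoter, and the RefSeq table of gene starts on GRCm38.p6 held 7 windows for it, each from 250 bases before to 50 bases after a start. The stretch before the start at position 109692436 of chromosome 2 is shown because it holds the 8-base element through which calcium signals are known to drive this gene's activity-dependent promoter. The element TCACGTCA, searched on both strands, was found 38 bases before that start and in none of the other 6 Bdnf windows. It occurred in 0.441% of all 32851 windows of the table. The table also held 2 windows for Ntf3 and 1 each for Ntrk2, Ngfr and Gfra1, none with the element. Read 5′ to 3′ on the plus strand over chr2:109692286-109692435, with the element in capitals, the stretch is:
Bdnf promoter: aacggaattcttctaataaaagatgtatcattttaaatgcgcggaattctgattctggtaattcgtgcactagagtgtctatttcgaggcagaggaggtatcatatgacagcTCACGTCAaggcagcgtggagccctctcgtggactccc
The match describes letters only. The deposited counts add up all transcripts of a gene, so transcripts from this start could not be told apart from those of the other starts.

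Ntf3 (chr6:126101412-126166910, minus strand) was highest in the hippocampus. It had 17.1 ± 3.72 CPM (n = 57) in anterior hippocampus, 13.4 ± 5.69 CPM (n = 58) in posterior hippocampus, 9.64 ± 2.94 CPM (n = 51) in entorhinal cortex and 7.59 ± 4.08 CPM (n = 55) in subventricular zone, and each of these steps passed the neighbour test. Cerebellum (3.41 CPM), pons (3.12 CPM), visual cortex (1.69 CPM) and choroid plexus (2.02 CPM) formed a lower group without a difference between neighbours. All other regions had means below 1 CPM, and 44 of 58 olfactory bulb libraries and 49 of 58 caudate putamen libraries had no Ntf3 read. The lowest entorhinal value, 0.292 CPM, came from the library of mouse 52; the other 50 began at 5.25 CPM and had a mean of 9.83 ± 2.64 CPM.

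**Figure D1:**
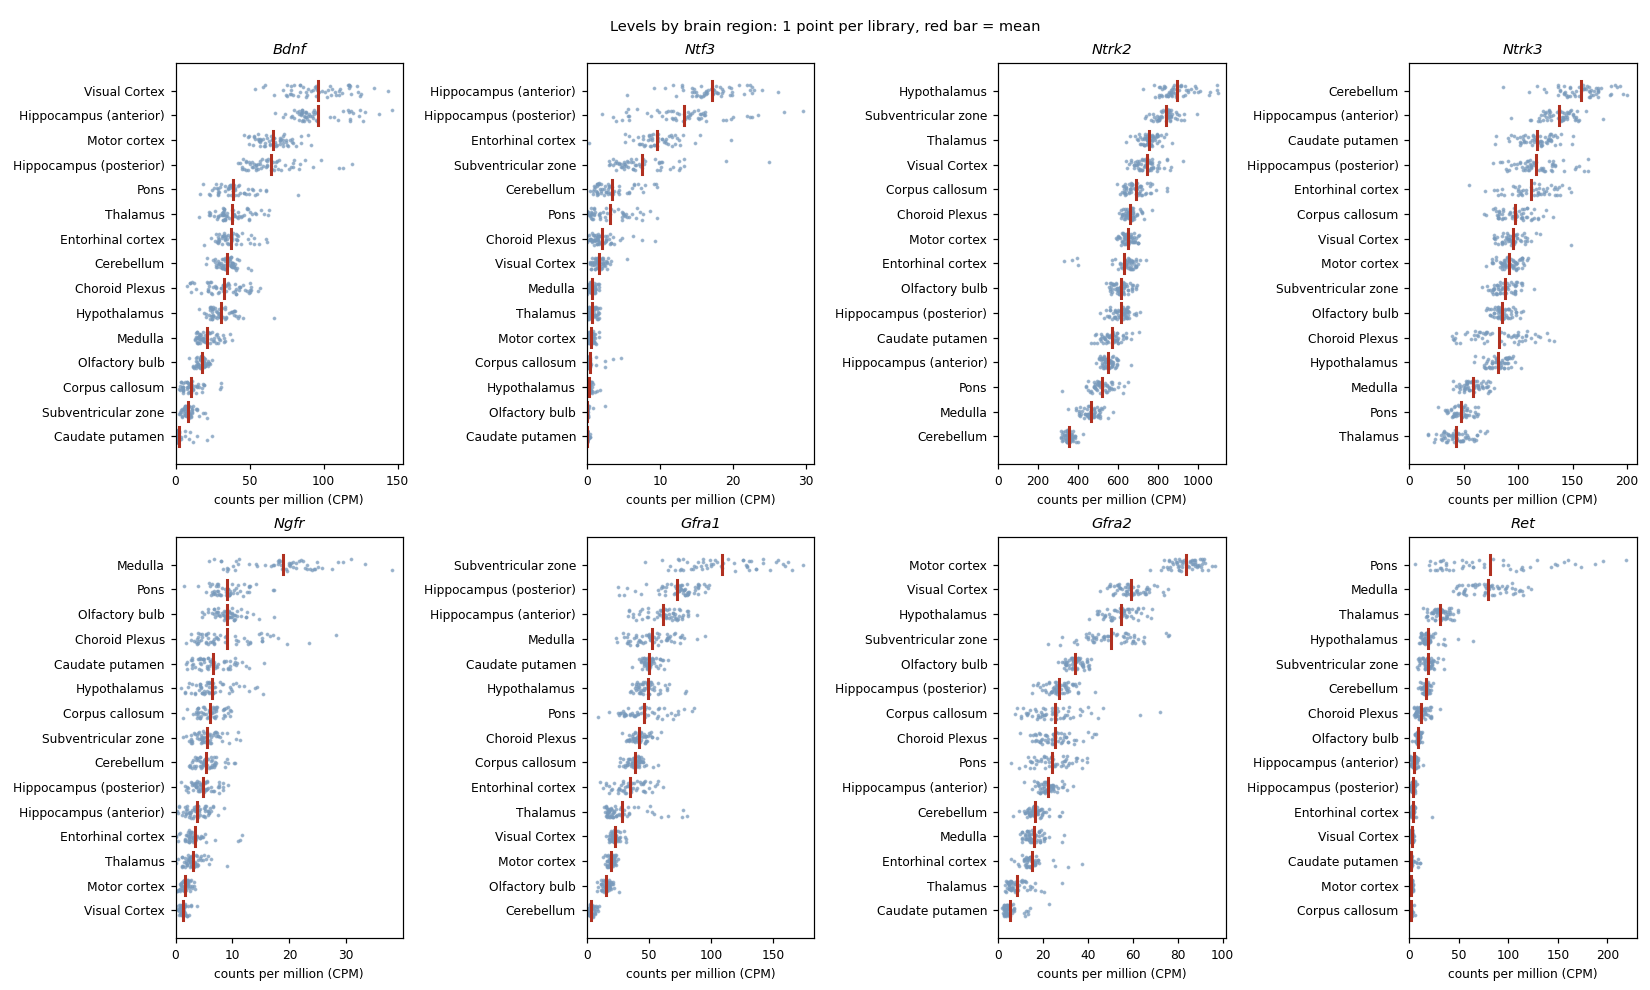
Levels of the 8 genes in 15 brain regions, in CPM on linear axes that differ between panels. Each point is 1 library and the red bar is the mean; regions are ordered by mean. Ntrk2 varied 2.54-fold between its highest and lowest region means and Bdnf 36.6-fold.

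Ntrk2 (chr13:58806569-59133970, plus strand) was the most even of the receptors. Its mean ran from 353 ± 21.3 CPM (n = 58) in cerebellum to 896 ± 83.6 CPM (n = 55) in hypothalamus, a 2.54-fold range, and no library had fewer than 316 CPM. Subventricular zone (840 CPM) and thalamus (756 CPM) followed hypothalamus, and pons (518 CPM) and medulla (464 CPM) preceded cerebellum. Neighbours differed in 10 of 14 pairs, mostly by little: 0.09 on the log2 scale between hypothalamus and subventricular zone (adjusted p = 1.3e-04, permutation test) and 0.39 between medulla and cerebellum (adjusted p = 3.4e-05, permutation test). Of 51 entorhinal libraries, the lowest had 328 CPM against a median of 650 CPM.

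Ntrk3 (chr7:78175959-78738012, minus strand) had another order. Cerebellum, lowest for Ntrk2, was highest for Ntrk3 at 158 ± 21.6 CPM (n = 58), followed by anterior hippocampus at 137 ± 14.3 CPM (n = 57). Caudate putamen (117 CPM), posterior hippocampus (117 CPM) and entorhinal cortex (112 CPM) did not differ from their neighbours within that trio. Thalamus was lowest at 42.8 ± 12.4 CPM (n = 59), next to pons at 47.3 CPM, and 8 of 14 neighbouring pairs differed. Cerebellar granule cells are known to express TrkC.

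Ngfr (chr11:95568818-95587735, minus strand) was low throughout and highest in medulla, which had 18.8 ± 6.92 CPM (n = 58), from 5.82 to 38.1 CPM in single libraries, about 0.96 on the log2 scale above the next region, olfactory bulb (adjusted p = 3.4e-05, permutation test). Pons, olfactory bulb and choroid plexus had means of 9.05 to 9.11 CPM and did not differ as neighbours. Motor cortex (1.68 ± 0.723 CPM, n = 59) and visual cortex (1.30 ± 0.644 CPM, n = 56) were lowest, where the median library held 12 and 7 Ngfr reads. With 5 of 14 neighbouring pairs different, Ngfr had the fewest separate steps of the 8 genes. In the adult brain p75 is best known from cholinergic neurons of the basal forebrain and from glial and vascular cells. The 3 cholinergic markers Chat, Slc5a7 and Slc18a3 had a summed median of 259 CPM in medulla and 107 CPM in caudate putamen, against 1.60 CPM in pons and 0.256 CPM in olfactory bulb.

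Gfra1 (chr19:58235604-58455909, minus strand) was highest in subventricular zone, at 109 ± 30.6 CPM (n = 55), and in both parts of the hippocampus, at 72.7 ± 17.6 CPM (n = 58) in the posterior and 61.7 ± 13.8 CPM (n = 57) in the anterior part. Medulla (52.8 CPM), caudate putamen (50.4 CPM), hypothalamus (48.9 CPM), pons (46.1 CPM) and choroid plexus (42.0 CPM) formed a group without a difference between neighbours. Cerebellum stood apart at the low end with 3.70 ± 2.10 CPM (n = 58), 2.20 on the log2 scale below olfactory bulb (adjusted p = 3.4e-05, permutation test).

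Gfra2 (chr14:70890120-70979838, plus strand) was highest in motor and visual cortex and in hypothalamus. It had 83.7 ± 6.19 CPM (n = 59) in motor cortex, 59.2 ± 6.74 CPM (n = 56) in visual cortex and 54.7 ± 6.38 CPM (n = 55) in hypothalamus. Single motor cortex libraries ran from 67.5 to 96.6 CPM, and visual cortex libraries from 45.3 to 75.8 CPM, so the 2 ranges overlapped although the means differed. Entorhinal cortex, the third cortical region, had 15.0 ± 5.15 CPM (n = 51; 14.7 without mouse 52), near the low end of the order. Thalamus (8.37 CPM) and caudate putamen (5.30 ± 3.81 CPM, n = 58) were lowest, so caudate putamen, in the upper part of the order for Gfra1, was last for Gfra2.

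Ret (chr6:118151745-118197718, minus strand) was highest in the brainstem. Pons had 81.3 ± 54.3 CPM (n = 51) and medulla 79.7 ± 21.0 CPM (n = 58), which did not differ as neighbours (0.27 on the log2 scale, adjusted p = 0.12, permutation test). Thalamus followed at 31.5 ± 8.35 CPM (n = 59), 1.06 on the log2 scale below pons (adjusted p = 3.4e-05, permutation test). The rank of pons depends on its libraries: they ran from 5.95 to 219 CPM, and Ret there moved with dopamine neuron genes, as described below. Cortical regions, caudate putamen and corpus callosum had means of at most 3.61 CPM, the value of entorhinal cortex, which was 3.23 ± 1.33 CPM (n = 50) without mouse 52. So the kinase and its co-receptors were highest in different places: Gfra1 in subventricular zone, Gfra2 in motor cortex and Ret in the brainstem.

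Levels were also set per kilobase of annotated exon, as a rough comparison between genes. The mean over the 15 regions was 33.0 CPM per kb for Ntrk2, 8.80 for Gfra2, 7.87 for Gfra1 and 6.39 for Bdnf. It was 3.12 for Ntrk3, 2.84 for Ret, 2.36 for Ntf3 and 1.81 for Ngfr. Exon lengths are unions over all isoforms in GENCODE M21, and truncated and full-length forms of Ntrk2 and Ntrk3 are summed in the counts. These unions run from 1.71 kb for Ntf3 to 30.2 kb for Ntrk3 and can be longer than any single transcript, by amounts that differ between genes. Antisense genes overlap Bdnf, Ntrk2, Ntrk3 and Gfra1 in that annotation, and the sequencing was unstranded, so their reads cannot be separated. Region accounted for between 64.6% (Ngfr) and 89.0% (Ntrk2) of the variance of log2 CPM. Age beside region accounted for 3.68% for Ngfr and between 0.231% and 0.656% for the other 7 genes.

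Most other ligands and receptors of both families given here were scarce. Gdnf was highest in caudate putamen at 3.39 CPM, Nrtn (neurturin, the ligand that prefers the product of Gfra2) in pons at 5.79 CPM, and Artn in olfactory bulb at 5.75 CPM. Ntf5, Gfra3 and Pspn did not exceed a region mean of 0.672 CPM. Sort1, which encodes sortilin, the partner of p75 for uncleaved neurotrophins, was abundant, from 87.7 CPM in hypothalamus to 266 CPM in anterior hippocampus. Gfra4 ran from 21.0 CPM in cerebellum to 84.5 CPM in posterior hippocampus.

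Genes with a like pattern were ranked among the 11956 genes that averaged 5 CPM or more, by Pearson's r over the 15 region means, and by r over all libraries after region, and age and sex within region, were removed. Libraries of 1 mouse share an animal, and the genes of 1 library share its depth and its tissue content, so these values are descriptions. Nrn1, which encodes neuritin, led both rankings for Bdnf, with r = 0.94 over region means and 0.70 over residuals; Kcnj6 (0.69) and the Nogo receptor gene Rtn4r (0.64) followed over residuals. For Ntrk2 the residual leaders included Fads1 (0.56) and Acss1 (0.55), genes of lipid metabolism. Ntrk3 was led by Jph4 (0.67), Trank1 (0.63) and Cacna1e (0.63), and Gfra2 by Gng4 (0.58), Ncald (0.55) and Atp2b4 (0.53). For Ngfr they were Srebf1 (0.48), Clic4 (0.48) and Hepacam (0.47), and for Ret they were Slc6a11 (0.54), Clic4 (0.50) and F2r (0.49). Ntf3 (Syt17, 0.48) and Gfra1 (Elfn1, 0.51) had no closer companion. Among the 8 genes themselves the residual r lay between -0.29 for Ngfr with Ntrk3 and 0.34 for Ngfr with Ret.

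Change with age was tested in each region alone with edgeR's quasi-likelihood test of age in months beside sex, with adjustment over all genes of the region, and slopes are given as log2 per 10 months. Of 120 pairs of gene and region, 116 were tested; Ntf3 was too low in caudate putamen, hypothalamus, motor cortex and olfactory bulb. Of these, 8 pairs rose and 11 fell with age, and 7 of the 8 rising pairs were Ngfr. Over all genes and regions 5.87% of tests rose and 4.71% fell, so 8 of 116 lies near the background for rising genes and 11 of 116 above that for falling genes, a gap that was not tested. The median slope of the 116 pairs was -0.0087 and that of all tests -0.0011. Calls were found in 10 of the 15 regions. Olfactory bulb had 5 of them, where 7.31% of all genes rose and 8.3% fell. Males alone gave 5 rising and 5 falling pairs, no filter on low counts gave 5 rising, and without mouse 17 there were 7 falling.

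**Figure D2:**
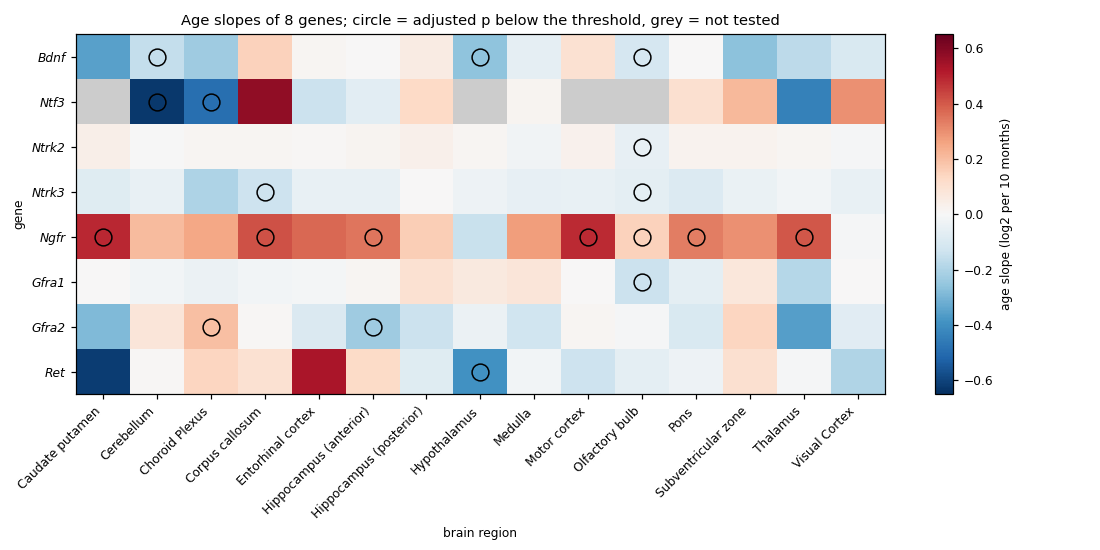
Age slopes (log2 per 10 months, colour) of the 8 genes in 15 regions. Circles mark the 8 rising and 11 falling pairs that passed the adjusted threshold, and grey marks the 4 pairs not tested; the row of Ngfr holds 7 of the 8 rising pairs.

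Ngfr rose with age in 7 of 15 regions and fell in none. Its slope was above 0 in 13 regions, with a median of 0.30 log2 per 10 months. Of the 12920 genes tested in all 15 regions, 3.44% rose in at least 7. The regions were caudate putamen (7.32% of all genes rose there), corpus callosum (9.06%), motor cortex (8.0%), pons (3.94%), thalamus (2.32%), anterior hippocampus (5.76%) and olfactory bulb (7.31%).

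In caudate putamen, 9 libraries of 3 months ran from 1.92 to 6.48 CPM with a median of 2.97, and the 3 of 28 months had 8.82, 9.59 and 12.9 CPM, with no overlap. The slope was 0.49 ± 0.11 (SE, edgeR adjusted p = 0.0013), and the medians differed 3.22-fold. In motor cortex the 10 youngest libraries ran from 0.229 to 1.87 CPM (median 0.946) and the oldest 3 had 2.00, 2.95 and 3.27 CPM, again without overlap (slope 0.49 ± 0.094, edgeR adjusted p = 1.4e-04). The cortex values rest on few reads, about 12 in the median library. In corpus callosum the youngest ran from 1.35 to 6.60 CPM (median 3.85) and the oldest had 7.11, 7.34 and 9.53 CPM (slope 0.41 ± 0.078, edgeR adjusted p = 6.6e-05). Corpus callosum is a white matter tract, but its libraries here also held striatal tissue, as given with the markers above. These 3 regions passed the threshold under all 22 alternatives to the slope test.

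In pons the 9 youngest libraries ran from 4.01 to 8.90 CPM and the oldest 3 from 13.0 to 17.2 CPM, without overlap (slope 0.33 ± 0.079, edgeR adjusted p = 0.0040); with the range of mouse numbers as a factor the adjusted p was 0.068. In thalamus the youngest ran from 0 to 3.18 CPM and the oldest from 2.71 to 5.89 CPM (slope 0.40 ± 0.11, edgeR adjusted p = 0.024), and males alone gave an adjusted p of 0.13. Anterior hippocampus (0.35 ± 0.12, edgeR adjusted p = 0.045) and olfactory bulb (0.15 ± 0.054, edgeR adjusted p = 0.045) were close to the threshold, and their groups overlapped. Each lost the call under 8 of 22 alternatives, in anterior hippocampus without mouse 1, 37, 39 or 57 and in olfactory bulb without mouse 2, 17, 37 or 40. In hypothalamus the slope was -0.14 and in visual cortex -0.0086, and neither passed.

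**Figure D3:**
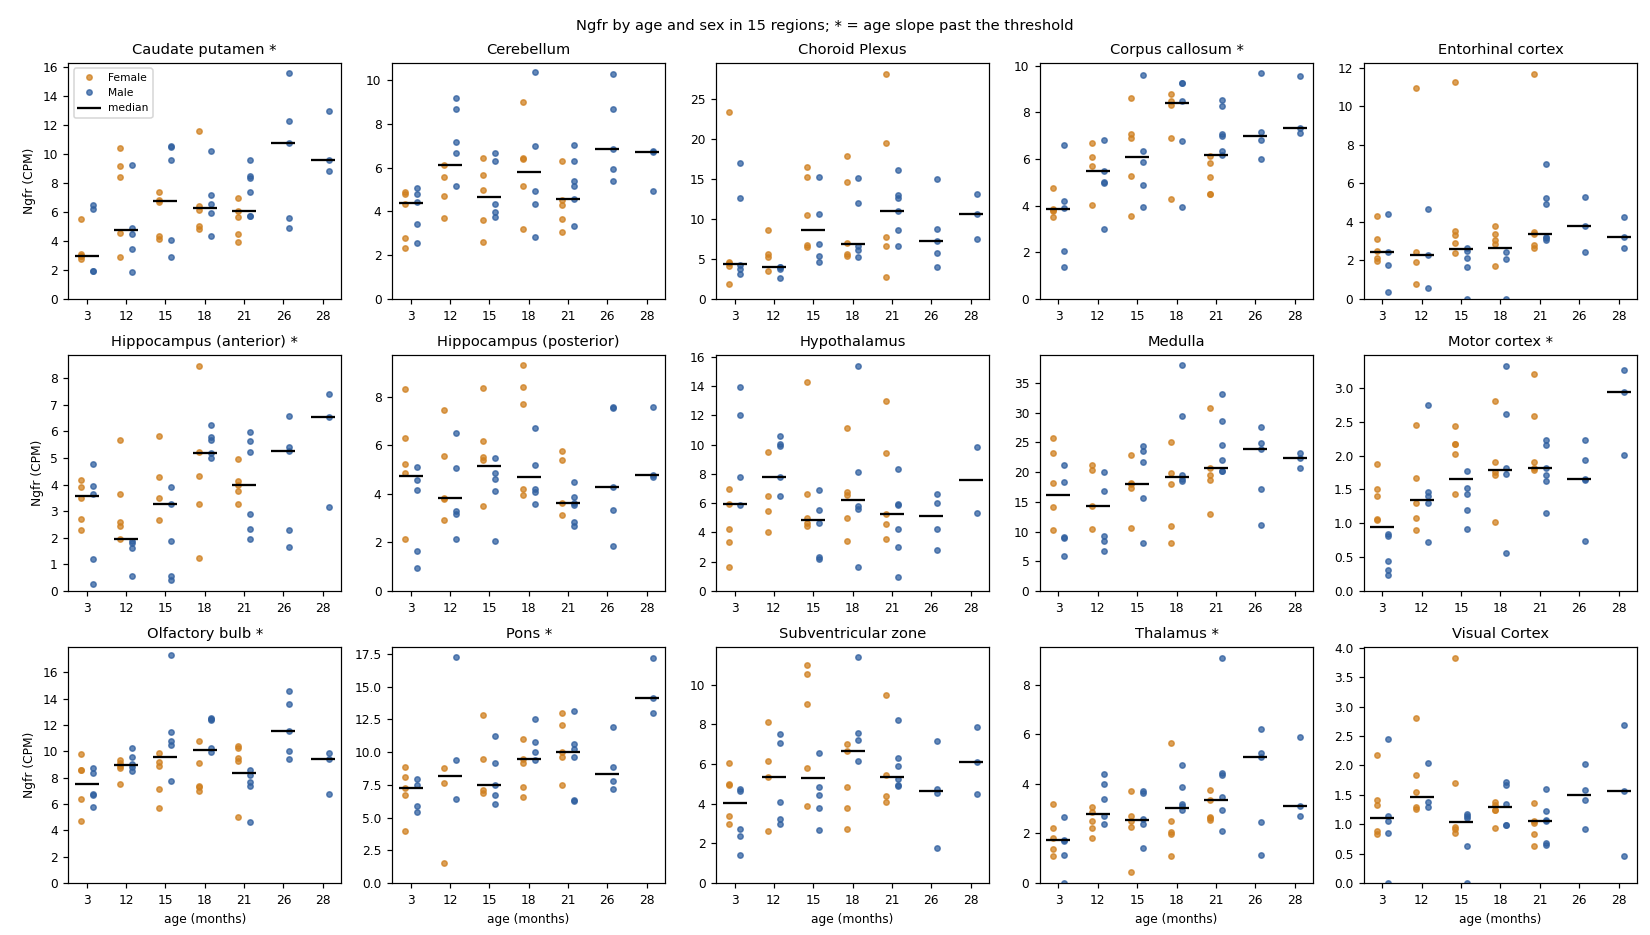
Ngfr in CPM by age in months and sex, 1 point per library, with the median over both sexes as a black bar; asterisks mark the 7 regions whose age slope passed. In caudate putamen, corpus callosum, motor cortex and pons all 3 libraries of 28 months lie above every library of 3 months.

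Markers of other cells were set beside the Ngfr result. In the 7 regions where Ngfr rose, none of 13 tests of the cholinergic markers and none of 11 tests of Schwann cell markers passed in either direction. Of 35 tests of mural cell markers, 3 rose, all of them Kcnj8 (in caudate putamen, corpus callosum and motor cortex), and 2 fell. Of 35 tests of oligodendrocyte markers 2 rose and 2 fell, and of 35 tests of astrocyte markers 4 rose and 3 fell. Oligodendrocyte precursor markers fell in 11 of 35 tests, 7 of them Gpr17, a gene of newly committed precursors, and 4 of them Neu4. Microglia markers rose in 18 and fell in 1 of 35 tests, and over all regions rose in 43 and fell in 2 of 75, both falls being Csf1r, in motor and visual cortex. Over all genes and regions 5.87% of tests rose and 4.71% fell. Within regions the residual of Ngfr moved with Mog, a myelin gene, in caudate putamen (r = 0.76 over 58 libraries) and choroid plexus (0.77 over 57), and with Chat in choroid plexus (0.83), but not in motor cortex (0.19 with Mog and -0.03 with Chat over 59) or pons (-0.11 and -0.03 over 51). The slope of Ngfr did not pass in choroid plexus (0.25, edgeR adjusted p = 0.22). Correlations in the other regions, corpus callosum among them, and with other markers are not given here. The part of these cell types in the rise was not tested.

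Bdnf fell in 3 regions and rose in none. In cerebellum, where 7.52% of all genes fell, it had 33.3 to 50.8 CPM (median 38.5) in 10 libraries of 3 months and 25.3, 26.9 and 38.4 CPM at 28 months (slope -0.16 ± 0.035, edgeR adjusted p = 8.1e-04). This call passed all 22 alternatives. In hypothalamus, where 3.0% of genes fell, 9 libraries of 3 months ran from 20.5 to 40.2 CPM (median 33.5) and the 2 of 28 months had 19.4 and 22.7 CPM, with overlap (slope -0.26 ± 0.064, edgeR adjusted p = 0.0066); males alone and mice 16 to 56 alone did not pass, with adjusted p-values of 0.26 and 0.15. In olfactory bulb, where 8.3% fell, 13.9 to 21.8 CPM at 3 months stood against 9.29, 12.0 and 16.6 CPM at 28 months (slope -0.11 ± 0.040, edgeR adjusted p = 0.045). The olfactory bulb call was lost under 8 of 22 alternatives, among them leaving out mouse 2, 17, 39, 40 or 57. In the regions where Bdnf is highest, anterior hippocampus and visual cortex, its slope did not pass. Gabra6, a gene of cerebellar granule cells, fell beside Bdnf in cerebellum (-0.14, edgeR adjusted p = 0.014). Pcp2, the other cerebellar gene of the marker lists, did not pass there. The part of either gene's cells in the fall was not tested.

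Ntf3 fell in cerebellum and in choroid plexus. The cerebellar values did not fall step by step: the median was 4.35 CPM at 3 months, 5.46 at 12, 1.97 at 15, 2.57 at 18, 1.49 at 21, 5.75 at 26 and 1.44 at 28 months. The 10 libraries of 3 months ran from 2.84 to 9.49 CPM and the 3 of 28 months from 0.789 to 1.65 CPM, without overlap (slope -0.63 ± 0.15, edgeR adjusted p = 0.0013). The ages of 12 and 26 months belong to the mice numbered 1 to 15, whose median was 5.60 CPM against 2.31 CPM in the others, so these 2 ages and the lowest mouse numbers cannot be told apart. The call passed all 22 alternatives, including mice 16 to 56 alone and mouse number range as a factor. In choroid plexus, where 9.03% of genes fell, Ntf3 had a median of 2.45 CPM at 3 months and 0.997 CPM at 28 (slope -0.49 ± 0.18, edgeR adjusted p = 0.049). That call was lost under 9 of 22 alternatives, among them leaving out mouse 3, 16, 17, 19 or 38 and, with an adjusted p of 0.11, the choroid plexus markers as a covariate. In the same libraries 3 of 5 markers of dentate granule neurons fell and none rose, and their part in the fall of Ntf3 was not tested.

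Of the 2 Trk receptor genes, Ntrk2 moved little and Ntrk3 had slopes of -0.20 in choroid plexus, which did not pass (edgeR adjusted p = 0.061), to 0.00024 in posterior hippocampus. Ntrk2 fell in olfactory bulb alone, from 541 to 692 CPM (median 649) in 10 libraries of 3 months to 586, 593 and 596 CPM at 28 months (slope -0.056 ± 0.013, edgeR adjusted p = 0.0020), a call kept under all 22 alternatives. Its slopes in the 15 regions lay between -0.056 and 0.038. Ntrk3 fell in corpus callosum, where 8.71% of genes fell, from 87.5 to 126 CPM (median 110) at 3 months to 70.1, 81.8 and 82.8 CPM at 28 months, without overlap (slope -0.13 ± 0.034, edgeR adjusted p = 0.0032); with males alone or mice 16 to 56 alone the adjusted p was 0.10 and 0.13. In olfactory bulb its slope was -0.061 ± 0.022 (edgeR adjusted p = 0.048), lost under 11 of 22 alternatives, among them leaving out mouse 3, 17, 19 or 40. The slope of Ntrk3 was below 0 in 14 of 15 regions.

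**Figure D4:**
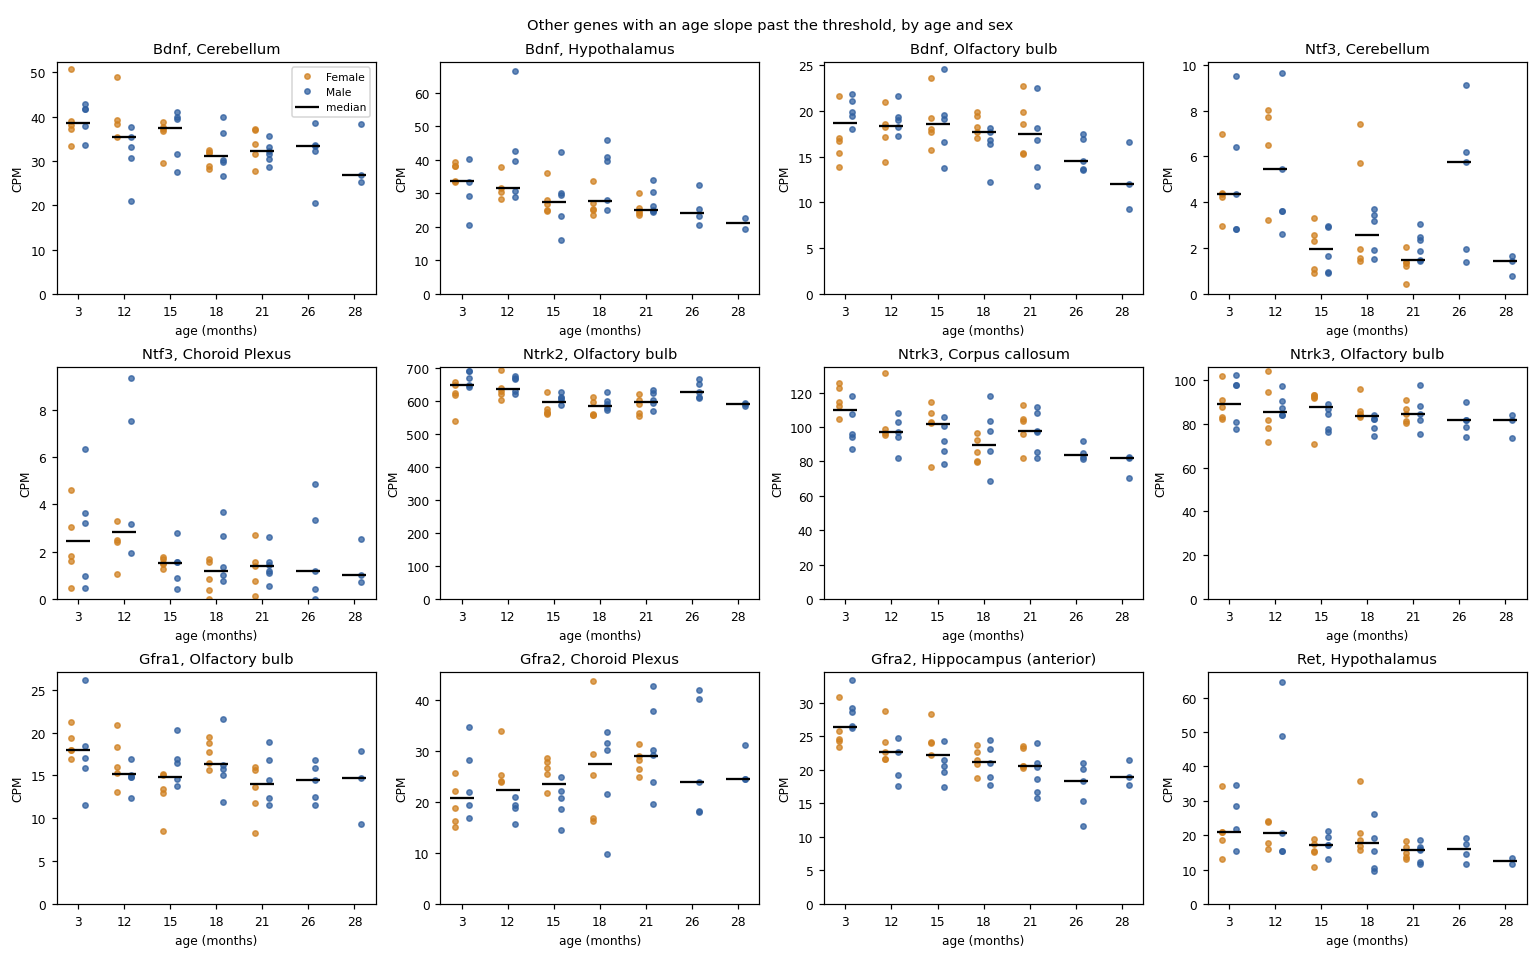
The 12 other pairs of gene and region with an age slope past the threshold, in CPM by age in months and sex, 1 point per library, with the median as a black bar. Axes start at 0 and differ between panels; Ntf3 in cerebellum is high at 3, 12 and 26 months and low at the other ages.

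Among the GDNF family receptors, Gfra2 in anterior hippocampus had the smallest adjusted p of all pairs. Its 10 libraries of 3 months ran from 23.4 to 33.5 CPM with a median of 26.4, and the medians at 12, 15, 18 and 21 months were 22.6, 22.2, 21.2 and 20.6 CPM. The 3 of 28 months had 17.7, 18.9 and 21.5 CPM, below every young library. The slope was -0.23 ± 0.033 (edgeR adjusted p = 1.4e-06), it passed all 22 alternatives, and 3.64% of genes fell in that region. In choroid plexus Gfra2 rose instead, where 11.1% of genes rose, from a median of 20.7 CPM to 24.5 CPM with overlap (slope 0.20 ± 0.073, edgeR adjusted p = 0.048); the call was lost under 8 of 22 alternatives, among them leaving out mouse 3, 16, 17, 18 or 40. Beside the fall in anterior hippocampus, choroid plexus markers rose there in 3 of 4 tests and ependymal markers in 2 of 4, and their part was not tested; with the choroid plexus markers as a covariate the call was kept.

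Gfra1 fell in olfactory bulb alone, from 11.5 to 26.2 CPM (median 18.0) to 9.29, 14.8 and 17.9 CPM, with overlap (slope -0.14 ± 0.048, edgeR adjusted p = 0.039), a call lost under 5 of 22 alternatives, 2 of them leaving out mouse 2 or 17. Ret fell in hypothalamus alone, where 9 libraries of 3 months ran from 13.2 to 34.6 CPM (median 20.9) and the 2 of 28 months had 11.7 and 13.4 CPM (slope -0.39 ± 0.098, edgeR adjusted p = 0.0086); males alone gave an adjusted p of 0.063. Its steeper slopes in caudate putamen (-0.62, edgeR adjusted p = 0.073) and entorhinal cortex (0.53, edgeR adjusted p = 0.18) did not pass. The entorhinal slope was 0.32 ± 0.12 without the library of mouse 52 (edgeR adjusted p = 0.44), which had 22.5 CPM of Ret against at most 7.23 CPM in the other 50.

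Setting each later age against 3 months with age as a factor gave 22 higher and 21 lower results in 696 tests of the 8 genes, where 2.01% of all tests were higher and 1.41% lower. These comparisons share their 3-month libraries. Ngfr held 18 of the 22 higher results and none of the lower ones. It was above the 3-month level at every later age from 15 months in corpus callosum, where the difference was 0.68 on the log2 scale at 15 months, 0.96 at 18 and 1.02 at 28 (edgeR adjusted p = 0.038, 3.5e-04 and 0.0049). In caudate putamen the first age to pass was 26 months (1.22, edgeR adjusted p = 0.030), in motor cortex 18 and in pons and thalamus 21 months. Cerebellum, where the slope of Ngfr did not pass, was higher at 12 months (0.63), 18 months (0.66) and 26 months (0.74). The ages of 12 and 26 months belong to the mice numbered 1 to 15, so age and number range cannot be told apart there. Gfra2 in anterior hippocampus was lower from 18 months on at each of the 4 later ages, with differences of -0.39, -0.43, -0.63 and -0.47. Ntrk2 in olfactory bulb was lower at 15, 18, 21 and 28 months, with differences of -0.12, -0.14, -0.11 and -0.15, and in motor cortex it was higher at 15 and 26 months (0.09 and 0.12). Ntrk3 had 5 lower results: in corpus callosum at 18 and 28 months (-0.26 and -0.45), in choroid plexus at 21 (-0.60), in pons at 18 (-0.38) and in motor cortex at 28 months (-0.34). Bdnf had 4, in cerebellum at 18, 21 and 26 months (-0.31, -0.26 and -0.36) and in choroid plexus at 21 months (-0.69). Ntf3 in cerebellum was lower at 15, 21 and 28 months (-1.16, -1.53 and -1.91), and its differences at 12, 18 and 26 months did not pass. Ret passed at no age. With males alone there were 11 higher and 12 lower results.

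The males of 12 and 26 months lie in 1 range of mouse numbers, which allows an age comparison within that range. None of 111 tests of the 8 genes passed (edgeR), where 0.216% of all tests did. At an unadjusted p below 0.05 there were 21, against 7.66% of all tests. Ngfr was then 0.90 ± 0.37 higher on the log2 scale at 26 months in caudate putamen (edgeR adjusted p = 0.47). It was 0.53 ± 0.23 higher in corpus callosum (0.68) and 1.47 ± 0.42 in anterior hippocampus (0.44). Where its slope had not passed, Ngfr was 1.01 ± 0.34 higher in choroid plexus (0.44) and 0.79 ± 0.30 in medulla (0.46). In hypothalamus its difference was -0.86 ± 0.24 (0.16). In the other regions where its slope had passed, Ngfr differed by 0.32 ± 0.12 in olfactory bulb (0.31), 0.25 ± 0.36 in thalamus (0.79), 0.022 ± 0.32 in motor cortex (1.00) and -0.15 ± 0.29 in pons (0.98); in motor cortex and pons the difference was smaller than its error. For Bdnf the difference was -0.32 ± 0.093 in olfactory bulb (0.17), -0.78 ± 0.23 in hypothalamus (0.18), -0.49 ± 0.17 in thalamus (0.35) and 0.27 ± 0.11 in motor cortex (0.96). The smallest unadjusted p belonged to Gfra2 in thalamus, at -1.40 ± 0.34 (edgeR adjusted p = 0.35).

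Females and males were compared at the ages both have, 3 to 21 months. Except at 12 months, these males carry the numbers 16 to 36 and these females 37 to 56. Sex and the range of mouse numbers cannot be told apart at those ages. Of 114 tests, 2 passed, both in posterior hippocampus, where 4.21% of all genes differed; over all regions 2.71% did. Ntrk3 was higher in males (median 126 CPM against 109 CPM, log2 difference 0.21 ± 0.063, edgeR adjusted p = 0.047). Ngfr was lower in males (4.10 CPM against 5.41 CPM, log2 difference -0.48 ± 0.14, edgeR adjusted p = 0.041). Neither passed without mouse 1, 16, 39 or 40 or at 12 months alone, and Ntrk3 did not pass without mouse 18, 19 or 38. The slope with age did not differ between the sexes past the threshold in any of 114 tests (smallest edgeR adjusted p = 0.33), where 0.0727% of all tests did; 7 had an unadjusted p below 0.05, and 5.92% of all tests did. The smallest of these 7 was Ngfr in hypothalamus, where the slope in males minus that in females was -0.84 ± 0.32.

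Whether a slope differed between regions was tested in 1 joint edgeR fit over all libraries. Low counts were filtered over all regions at once, so Ntf3 entered with the 4 regions where it was too low to test alone. The weight of these regions in the Ntf3 result was not tested. The 14 terms that let slopes differ between regions passed together for 5 of the 8 genes, where 19.0% of all genes passed. The edgeR adjusted p was 2.7e-07 for Ntf3, 8.4e-05 for Gfra2, 0.012 for Ngfr, 0.012 for Ret and 0.032 for Bdnf, and did not pass for Ntrk2 (0.51), Ntrk3 (0.35) or Gfra1 (0.46). Bdnf did not pass without mouse 16 (0.064) or mouse 17 (0.093), Ngfr did not pass in mice 16 to 56 alone (0.11), and Ret did not pass without the entorhinal library of mouse 52 (0.08).

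Setting each region's slope against the mean of the other 14 gave 3 differences. Gfra2 in choroid plexus was 0.27 ± 0.069 log2 per 10 months above the others (edgeR adjusted p = 0.017), where 0.869% of all genes were. Ngfr in hypothalamus stood at -0.44 ± 0.11 against the others (edgeR adjusted p = 0.036), where 0.126% of genes were lower; in mice 16 to 56 alone the difference was -0.43 with an adjusted p of 0.37. Ret in entorhinal cortex was 0.61 ± 0.16 above the others (edgeR adjusted p = 0.016), where 1.21% of genes were. That difference rested on the library of mouse 52: without it the value was 0.35 ± 0.17 with an adjusted p of 0.51. With the mouse as a replicate block it was 0.54 with an adjusted p of 0.057. The replicate block added Ntf3 in cerebellum, at -0.53 against the other regions (edgeR adjusted p = 0.048, against 0.065 without the block).

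The other genes of the pathway moved in both directions. Of 330 tests of 22 signal transduction genes, 29 rose and 21 fell, where 5.87% of all tests rose and 4.71% fell. Rps6ka1, a ribosomal S6 kinase downstream of ERK, rose in 9 of 15 regions, with slopes of 0.096 in medulla to 0.27 in choroid plexus. Dok4, an adaptor of receptor tyrosine kinases, fell in 6, with slopes of -0.20 in olfactory bulb to -0.12 in anterior hippocampus. Feedback inhibitors, which dampen receptor tyrosine kinase signalling, rose in 1 and fell in 15 of 105 tests, and Dusp6, a phosphatase of ERK, fell in 6 regions, most in corpus callosum (-0.20). Partners of p75 and of the Trk receptors rose in none and fell in 13 of 90 tests, among them the adaptor Sh2b1 in 6 regions, with slopes of -0.10 in subventricular zone to -0.052 in choroid plexus. Activity and neurotrophin induced genes rose in 2 and fell in 16 of 159 tests, with a median slope of -0.068. Egr1 and Vgf, named after their values were seen, fell in 4 regions each. Precursor processing genes, whose proteases cut neurotrophin precursors, rose in 6 and fell in 7 of 75 tests, and other ligands and receptors rose in 2 and fell in 8 of 136. Sort1 rose in caudate putamen (0.054) and medulla (0.21), Nrtn fell in caudate putamen (-0.27) and posterior hippocampus (-0.48), and Gfra4 fell in choroid plexus (-0.16). Over all genes and regions the median slope was -0.0011.

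Ret spread widely in pons, where its 51 libraries ran from 5.95 to 219 CPM. In the 10 libraries of mice 1 to 15, which are the mice of 12 and 26 months, Ret ran from 5.95 to 59.9 CPM with a median of 27.0, and in the 41 others from 21.0 to 219 CPM with a median of 84.5. Slc6a3 had a median of 35.8 CPM in the first and 459 CPM in the second group, Th 45.5 and 396 CPM, and Slc6a5, a glycine transporter of hindbrain neurons, 32.4 and 12.3 CPM. Ntf3 (medians 0.732 and 3.36 CPM), Gfra1 (29.9 and 47.1 CPM) and Gfra2 (15.9 and 25.3 CPM) were also lower in the first group, while Ngfr (8.26 and 9.18 CPM) and Bdnf (38.5 and 37.4 CPM) lay close together. Dopamine neurons of the midbrain are known to carry Ret.

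Within the 41 libraries, log2 CPM of Ret and of Slc6a3 had a Pearson r of 0.88 and a Spearman rho of 0.97 (permutation p = 1e-05 for both, the smallest that 100000 resamples can give; adjusted 1e-05 over 6 relations). Without the 2 libraries farthest from the median of Slc6a3, r was 0.90. Within the 10 libraries r was 0.58 (permutation p = 0.06, adjusted 0.07) and rho 0.53 (permutation p = 0.1, adjusted 0.1). With Th the values were 0.89 and 0.95 in the 41 (permutation p = 1e-05, adjusted 1e-05) and 0.53 and 0.50 in the 10 (permutation p = 0.1, adjusted 0.1). The relation was looked for after the spread of Ret had been seen. How much midbrain each dissection held was not tested.

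**Figure D5:**
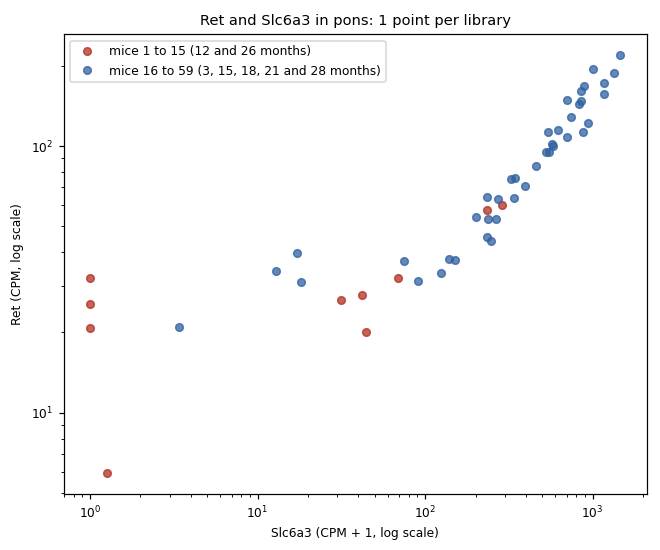
Ret against the dopamine transporter gene Slc6a3 in pons, both in CPM on log axes, with 1 CPM added to Slc6a3, 1 point per library. The 10 libraries of mice 1 to 15 lie at the low end, at up to 59.9 CPM of Ret, and the 41 others reach 219 CPM.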

How the data were processed

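The deposited files hold raw read counts per gene and library, and their columns were matched to mice, regions, ages and sexes through the labels. Per the labels' protocols, RNA was extracted with RNeasy kits and sequenced as unstranded Smart-Seq2 libraries tagged with Nextera XT. Trim Galore 0.3.7, STAR 2.5.3a, DESeq2 and GRCm38 are named per the submitters' processing notes; the counting program and annotation are not given in the sources used here. The 8 genes and all gene lists were chosen with earlier results of these data known.

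Counts were scaled with TMM factors and tested with edgeR 4.0.16 (R 4.3.3): low-count genes were removed with filterByExpr, the quasi-likelihood test was used, and p-values were adjusted by Benjamini and Hochberg over all genes tested, with a threshold of 0.05. Log2 CPM used a prior count of 2. Neighbouring regions were compared by a permutation test of 100000 resamples (NumPy 2.4.6). The age slope test was checked on simulated counts. Gene positions come from GENCODE on GRCm38 and the promoter window from RefSeq on GRCm38.p6. DESeq2 1.42.0 served as an alternative.

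No 2 libraries of a group were identical. Over 1625 pairs the lowest chi-square per degree of freedom was 1.05, close to the 1 of sampling noise alone, and the median was 5.44. Libraries of the same mouse are paired by the animal: their deviations from group means had a median correlation of 0.041, against -0.00075 between mice. Pathway genes were named where they passed in 1 direction in at least 6 regions (Egr1 and Vgf, in 4 each, were added after their values were seen), and other ligands and receptors were named with their levels; a few genes that these rules name are not reported here. The alternatives were other scalings, filters, tests, sexes, mouse numbers, covariates, and leaving out mice or libraries. Those chosen after seeing the data were edgeR without a dispersion prior, mouse number range as a factor, leaving out libraries under 1e+06 reads, CPM without TMM, and, for the joint fit, mice 16 to 56, leaving out mice, and leaving out the entorhinal library of mouse 52; leaving out mice in the sex by age test was also added then.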

Additional observations from a re-analysis of the deposited data

Results flagged for a closer look

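In groups of 4 to 6 libraries of 1 region, sex and age, a library was looked at again where its gap to the nearest other library was a large share of the group's range (Dixon's test); this was done for every pair of gene and region that passed an age, sex or single region test, 248 groups in all. It picked 16 libraries, and chance picks about 1 in 20 groups, which is 12.4 here. For Ngfr they were 5.53 CPM in caudate putamen and 4.76 CPM in corpus callosum of mouse 49 (3-month female), 11.6 CPM in caudate putamen of mouse 43, 14.3 CPM in hypothalamus of mouse 42, 4.98 CPM in olfactory bulb of mouse 48 and 9.08 CPM in thalamus of mouse 16. For Bdnf they were 29.5 CPM in cerebellum of mouse 42 and 36.0 CPM in hypothalamus of mouse 54. For Ntrk2 it was 628 CPM in olfactory bulb of mouse 38. For Ntrk3 they were 132 CPM in corpus callosum of mouse 13, 83.4 CPM in posterior hippocampus of mouse 1, and 70.7 CPM (mouse 54) and 95.7 CPM (mouse 39) in olfactory bulb. For Gfra2 it was 33.8 CPM in choroid plexus of mouse 7. For Ret they were 35.8 CPM in hypothalamus of mouse 51 and 22.5 CPM in entorhinal cortex of mouse 52, whose library also lacked cortical markers.

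Slopes that differed between regions by a test of the difference itself were those of Ntf3 (edgeR adjusted p = 2.7e-07 over all region by age terms), Gfra2 (8.4e-05), Ngfr (0.012), Ret (0.012) and Bdnf (0.032). Against the mean of the other regions, Gfra2 in choroid plexus differed by 0.27, Ret in entorhinal cortex by 0.61 and Ngfr in hypothalamus by -0.44 log2 per 10 months. Both results of Ret were lost without the entorhinal library of mouse 52, with edgeR adjusted p-values of 0.08 over all terms and 0.51 for entorhinal cortex. The result of Ntf3 includes the 4 regions where it was too low to test alone.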

How the results depend on the processing

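Of the 19 pairs of gene and region with an age slope past the threshold, 7 passed under all 22 alternatives: Bdnf and Ntf3 in cerebellum, Ntrk2 in olfactory bulb, Gfra2 in anterior hippocampus, and Ngfr in caudate putamen, corpus callosum and motor cortex. No slope of the 19 changed sign. Rising pairs numbered 8, with 5 without a filter on low counts and 5 in males alone, and falling pairs 11, with 5 in males alone; fewer samples or more genes enter there. Mice were left out 1 at a time. For slopes and the joint fit these were 12 mice, the lowest-numbered of each group of sex and age, and for the tests of sex 10 of these. For 26 against 12 months all 10 males were left out in turn, and for age as a factor the 3 mice of 28 months. Other mice were not left out. Leaving mice out gave 7 to 10 rising and 7 to 14 falling pairs, the 7 falling without mouse 17, and 6 to 9 regions with a rise of Ngfr. With age as a factor, males alone gave 11 higher and 12 lower results against 22 and 21, and leaving out mice 18 to 22 and 15 to 21. Between 26 and 12 months the count was 0 to 1, the 1 without mouse 12. Between the sexes it was 2, with 0 at 12 months alone and 0 to 2 when mice were left out (0 without mouse 1, 16, 39 or 40, and 1 without mouse 18, 19 or 38); for sex by age it was 0 to 0. Genes past the joint test of region by age numbered 5, and 4 to 5 when mice were left out. With the mouse as a replicate block 5 genes passed the joint test, 3 single regions differed, and 59 of 112 neighbouring regions differed against 60; beyond the calls given with the region slopes, the block changed no call of that joint fit. Ngfr in cortex and Ntf3 outside hippocampus rest on few reads, which limits their precision. Counting error and spread between mice are both in the p-values, and the causes of lost calls were not tested.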
